A study of Mus musculus with 4 samples.

Results

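Neutrophils of mouse gonadal white adipose tissue were examined here. A barcode counted as a neutrophil when S100a8 and S100a9 together held at least 50 of every 10000 of its unique molecular identifiers (UMIs, 1 for each captured transcript), when Csf3r and Retnlg together gave at least 2 UMIs, and when Pdgfra gave 0. The rule was applied to barcodes with at least 500 detected genes and under 8% of UMIs from mitochondrial genes, and it chose 256 of the 19428 barcodes that met those limits. The cells came from the stromal vascular fraction of male p16-CreERT2/R26-LSL-tdTomato mice, 18 months old, all given tamoxifen. In these mice the p16 promoter drives a tamoxifen-dependent Cre, which switches on tdTomato permanently, so that the reporter records p16 promoter activity at the time of tamoxifen and not p16 expression at sampling. Per the paper, aged mice were sacrificed 2 weeks after the daily tamoxifen injections. Cells were sorted by surface CD45, the pan-leukocyte antigen, and by tdTomato into 4 groups, named by both labels (CD45- Tom+, for example), and every group was a single library. How many mice gave each library was not given in the sources used here. No difference between libraries therefore had a replicate check, and no p-value is given. Intervals are exact 95% intervals that cover counting error only.

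Neutrophils are short-lived granulocytes made in the bone marrow, which enter tissues from blood along chemokine gradients read by receptors such as Cxcr2. They carry S100a8/S100a9 (calprotectin) in the cytosol and antimicrobial proteins and proteases in granules that are filled in sequence during maturation, so that messages for primary and secondary granules are mostly gone in mature cells. In adipose tissue they are a minor part of the leukocytes and a known source of interleukin-1 beta.

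The libraries held 3429 to 11255 barcodes and 64083756 to 139397501 UMIs, of which the CD45- libraries kept 5152 (Tom+) and 5536 (Tom-) barcodes and the CD45+ libraries 2225 (Tom+) and 6515 (Tom-). Where 4 values follow without labels, they are in this order. The neutrophils were small libraries within them. Their median was 4588 UMIs and 1434 genes in CD45- Tom+, 3566.5 UMIs and 1274.5 genes in CD45- Tom-, 4882 UMIs and 1450 genes in CD45+ Tom+, and 3827 UMIs and 1333 genes in CD45+ Tom-. The medians over all kept barcodes were 15658.5 to 17799 UMIs. Library pairs shared 26 to 4394 barcode sequences, the most between the 2 Tom- libraries, with median UMI totals 15.1 to 94.0 times apart. Neutrophils of the libraries labelled CD45- carried the CD45 transcript as those labelled CD45+ did, with values further on, so the labels serve here as names of libraries. A single neutrophil's barcode was listed in another library, and no neutrophil was kept in more than 1. No barcode was removed as a doublet in the values below. Leaving out the barcodes with the highest doublet scores, 40 to 340 per library, left out 0 neutrophils.

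Neutrophils were found in all 4 libraries, whatever the CD45 label. The library labelled CD45- Tom+ held 29 neutrophils, 0.563% of its kept barcodes (0.377 to 0.807%), and CD45- Tom- held 92, or 1.66% (1.34 to 2.03%). The library labelled CD45+ Tom+ held 25, or 1.12% (0.728 to 1.65%), and CD45+ Tom- held 110, or 1.69% (1.39 to 2.03%). The share was 2.95-fold lower in Tom+ than in Tom- within the CD45- pair, a log2 ratio of -1.56 (-2.22 to -0.95). Within the CD45+ pair the ratio was -0.59 (-1.28 to 0.05), an interval that included no difference. The CD45 label made no difference to the share beyond counting error in the Tom- libraries, where the log2 ratio of CD45+ over CD45- was 0.02 (-0.39 to 0.44), and it was 0.997 (0.16 to 1.82) in the Tom+ libraries. Shares in sorted material depend on the gates and on what else passed them, and a change in neutrophils cannot be told apart from a change in the other cells.

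**Figure D1:**
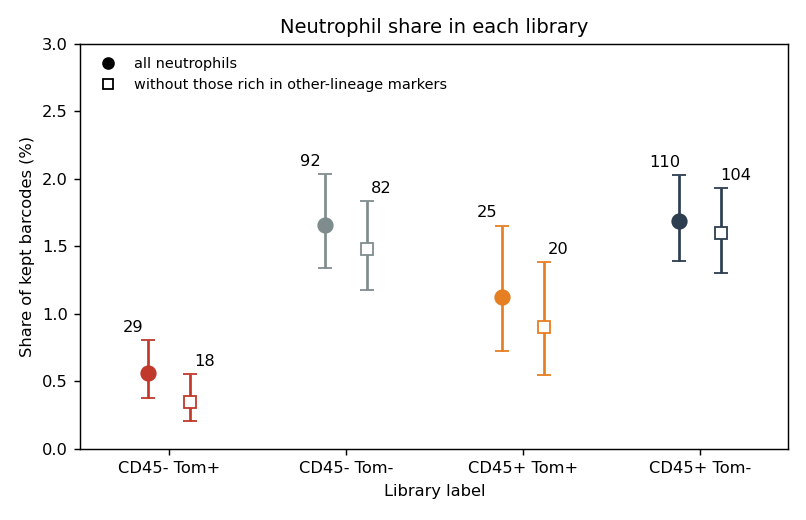
Neutrophils as a percent of kept barcodes in each of the 4 libraries, for all neutrophils (filled circles) and without those rich in other-lineage markers, as defined further on (open squares). Bars are exact 95% intervals for counting error and the numbers above them count neutrophils. The CD45- Tom+ library, at 0.563%, lies below the other 3, which lie between 1.12% and 1.69%.

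The rule left few borderline cells. The median of S100a8 plus S100a9 was 569 per 10000 UMIs in CD45- Tom+, 605 in CD45- Tom-, 445 in CD45+ Tom+ and 642 in CD45+ Tom-, whereas the 99th percentile of all other kept barcodes was 1.94 to 13.7. Between 50 and 100 per 10000, just inside the limit, were 13 neutrophils over the 4 libraries. Just outside it, 11 barcodes that met the rest of the rule had 25 to 50 per 10000. A further 15 barcodes met the S100 limit with 1 UMI of Csf3r and Retnlg, and 27 failed on Pdgfra alone, 22 of these in CD45+ Tom-.

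Of the markers that the rule did not use, Ptprc and Ly6g went with the label of neutrophils, and Ptprc went against the CD45- label of 2 of the libraries. Ptprc, which encodes CD45, stood at 1391 CPM (UMIs of the gene scaled to a total of 1000000) in CD45- Tom+ neutrophils, 1585 in CD45- Tom-, 1216 in CD45+ Tom+ and 1771 in CD45+ Tom-, against 137 to 210 in the other kept barcodes of the same libraries. It was detected in 96.6 to 100% of the neutrophils of each library. Ly6g, the antigen used to sort mouse neutrophils, was sparse, at 157, 80.04, 21.2 and 51.8 CPM in the same order of libraries, and in 8 to 17.2% of cells. In the other kept barcodes it did not exceed 0.14 CPM. Of the 4 eosinophil markers, Epx, the peroxidase of their granules, had 0 UMIs in every library. The list summed to 0, 38.7, 84.9 and 23.7 CPM, most of it Siglecf at 0, 36.1, 56.6 and 19.4 CPM, and to 25.7, 2.87, 28.9 and 3.25 CPM in the other kept barcodes. The T cell, NK, mesothelial and erythroid markers summed to 43.1 CPM or less per list in neutrophils. Other lists were not low. Macrophage markers summed to 6279, 1193, 2914 and 992 CPM, against 5400, 3682, 5647 and 3883 in the other kept barcodes. Monocyte markers summed to 873, 2905, 403 and 800 CPM, against 1624, 2709, 1504 and 2819. B cell markers summed to 47.7, 101, 304 and 38.8 CPM, against 297, 97.6, 289 and 119. Neutrophils rich in such markers are described further on.

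The genes that set neutrophils furthest apart from the other cells were an interleukin-1 group, a chemokine receptor and secreted or granule products. Because the cells were chosen by their own RNA, these levels are a description. CPM compares a gene between groups and not 1 gene with another, since only the 3′ end of each transcript was read. The rule genes S100a8, S100a9, Csf3r and Retnlg were left out of the ranking. Among the other genes with at least 200 CPM in neutrophils of every library, Stfa2l1, a stefin-type inhibitor of cysteine proteases, came first. It stood at 845 CPM in CD45- Tom+, 991 in CD45- Tom-, 1082 in CD45+ Tom+ and 1158 in CD45+ Tom-, and the median log2 ratio over the other kept barcodes was 11.05. Gm5483, a second stefin-like gene, followed at 408 to 744 CPM and a log2 ratio of 10.39. It was detected in 21.8 to 48.3% of neutrophils, and 1 CD45+ Tom+ cell held 56 of that library's 90 UMIs. The stefin genes of this cluster are close copies of each other, so their separate levels are uncertain. Stfa2l1 was detected in 42.7 to 55.2% of neutrophils and was at 0 UMIs in all the monocytes defined below. Its highest CD45+ Tom+ cell held 65 of 153 UMIs.

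Cxcr2 (chr1:74153989-74161246, mm10), the receptor for Cxcl1 and Cxcl2 that brings neutrophils into tissue, was at 566 CPM in CD45- Tom+ neutrophils, 674 in CD45- Tom-, 672 in CD45+ Tom+ and 854 in CD45+ Tom-. Other kept barcodes had 0.263 to 1.59 CPM, a median log2 ratio of 9.78. After each cell was thinned to 1000 UMIs, 20.7 to 48.2% of neutrophils still held a Cxcr2 UMI, and 0 to 0.2% of stromal barcodes did. Il1b (chr2:129364570-129371139, mm10), which encodes interleukin-1 beta, was at 5748 CPM in CD45- Tom+, 7116 in CD45- Tom-, 7390 in CD45+ Tom+ and 8791 in CD45+ Tom-, against 33.3 to 99.4 CPM in the other kept barcodes. It was detected in all 29, 92 and 110 neutrophils of 3 libraries and in 24 of 25 of CD45+ Tom+. Thinned to 1000 UMIs, 92 to 100% of neutrophils kept an Il1b UMI, and 0.36 to 1% of stromal barcodes did. Il1b was thus a property of nearly every neutrophil and not of a subset.

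Other genes of the interleukin-1 system were among the leading 15. Il1r2, the decoy receptor that binds interleukin-1 without signalling, stood at 1377, 1389, 1139 and 1603 CPM in the same order of libraries, with a median log2 ratio of 7.58 over the other barcodes. Il1f9, which encodes interleukin-36 gamma, had 218, 473, 453 and 841 CPM. Metabolic genes were represented by Acod1, the enzyme that makes itaconate, at 1343, 1913, 1733 and 2789 CPM, by Slc7a11, the cystine-glutamate exchanger, at 1670 to 2539 CPM, and by Hcar2, the receptor for niacin and beta-hydroxybutyrate, at 245 to 554 CPM. The remaining leading genes were Slfn4, a myeloid Schlafen gene, Mmp9, the gelatinase of tertiary granules, Ifitm1, an interferon-induced membrane protein, Pglyrp1, a peptidoglycan-binding granule protein, Cd300lf, an inhibitory lipid receptor, and Trem1, a receptor that amplifies inflammatory signalling. Their median log2 ratios over the other barcodes ran from 6.47 for Trem1 to 8.93 for Slfn4.

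**Figure D2:**
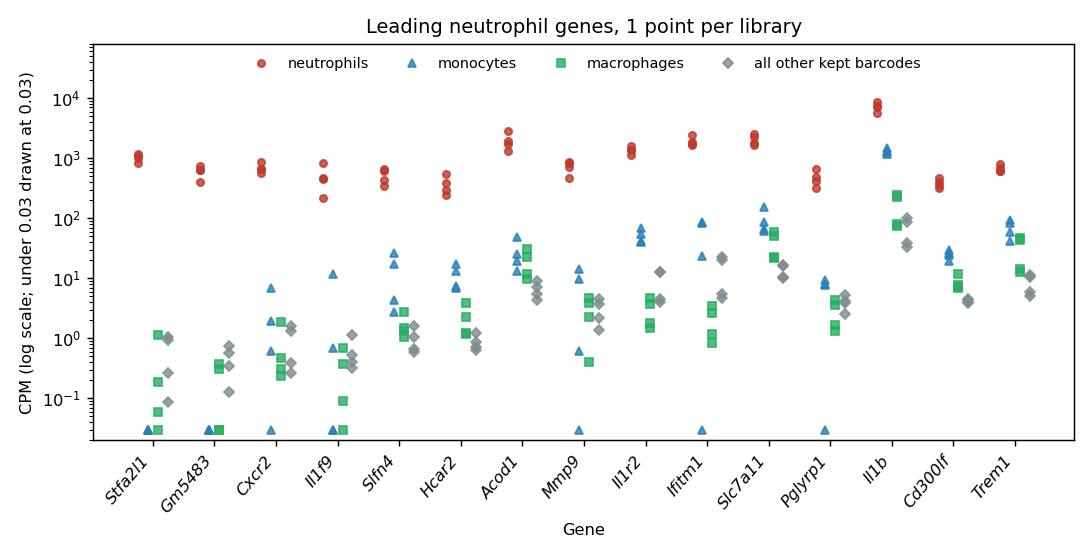
CPM on a log axis of the 15 leading genes in neutrophils, monocytes, macrophages and all other kept barcodes, with 1 point per library and values under 0.03 drawn at the lower edge. Neutrophil values lie above those of the other barcodes, at 566 to 854 CPM against 0.263 to 1.59 CPM for Cxcr2, and spread more widely between libraries for Il1f9, at 218 to 841 CPM.

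The promoters of the leading genes were read from RefSeq (GRCm38.p6, 250 bases before to 50 after the start), where 12 of the 15 had an entry. The letters GGAAGT, a core bound by the myeloid factor PU.1, were searched on both strands and were held by 10 of these 12 promoters (83.3%), against 23.8% of all 32851 promoters. A C/EBP pattern, TTNCNNAA, was held by 6 of 12 (50%) against 40.7%, and an AP-1 pattern, TGANTCA, by 1 of 12 (8.33%) against 7.81%. The motifs were chosen after the gene list was known, and matching letters are a description and not evidence of binding. The windows of 5 genes are shown so that the letters can be seen beside the genes whose levels are given above. GGAAGT or its reverse complement ACTTCC is in capitals, and each line reads 5′ to 3′ on the strand of the gene.
Cxcr2: agggcctccaggACTTCCccatcggtagcc
Il1r2: ctttttcaaggaACTTCCgactactctgtt
Il1b: tgccaccccttgACTTCCagggattagaaa
Acod1: caacacaacaaaGGAAGTttaagtgaggtc
Trem1: acagtcccctgaACTTCCttactgatgtca
The windows lie at chr1:74153958-74153987 (plus strand) for Cxcr2, chr1:40085978-40086007 (plus) for Il1r2, chr2:129371309-129371338 (minus) for Il1b, chr14:103046875-103046904 (plus) for Acod1 and chr17:48232618-48232647 (plus) for Trem1. The letters end 18 bases before the annotated start in Cxcr2, 97 in Il1r2, 103 in Trem1, 119 in Acod1 and 181 in Il1b.

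Messages of primary granules were nearly absent, and so were 3 of secondary granules outside a single cell. Of the primary granule genes, Mpo, Elane, Ctsg and Ms4a3 had 0 UMIs in every library, which allows at most 3 UMIs in each, and Prtn3 had 1 UMI in CD45+ Tom+, 3 UMIs in 2 cells of CD45+ Tom- and 0 in both CD45- libraries. The secondary granule genes Ltf, Camp and Ngp, which encode lactoferrin, cathelicidin and neutrophilic granule protein, gave 1 UMI in CD45- Tom+, 2 in CD45+ Tom+ and 6 in CD45+ Tom-. In CD45- Tom- they gave 724 UMIs, and 719 of these lay in 1 cell. That cell held 12431 UMIs and 2389 genes, with 523 UMIs of Ngp, 103 of Ltf, 93 of Camp, 152 of Lcn2, 471 of Retnlg, 43 of Mmp8 and 4 of Cebpe, the factor that drives secondary granule genes, but only 8 of Il1b and 1 of Csf3r. It was the only neutrophil of the 256 with more than 3 UMIs of these 3 genes. The secondary granule list of 9 genes as a whole was not absent and summed to 2264, 5115, 2129 and 2746 CPM. In it, Lcn2, which encodes the siderophore-binding lipocalin, was at 457 CPM in CD45- Tom+, 976 in CD45- Tom-, 375 in CD45+ Tom+ and 475 in CD45+ Tom-, and the single Ngp-rich cell held 152 of the 378 UMIs in CD45- Tom-.

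Tertiary granule and secretory genes ranged widely, and 4 of the 10 were sparse, with Mmp8, the neutrophil collagenase, at 27.3 to 163 CPM, Padi4, which citrullinates histones, at 13.6 to 56.8, BC100530 at 12.9 to 34.1 and Mmp25 at 7.07 to 25.9. Wfdc17 and Wfdc21, small secreted proteins with a protease inhibitor fold, stood at 1851 to 2143 CPM and at 191 to 555 CPM. Srgn, the proteoglycan that packs granule contents, was in every neutrophil, at 4963 to 7497 CPM.

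Monocytes and macrophages of the same libraries gave a scale for these levels. Monocytes were 225 barcodes with at least 3 UMIs of Ly6c2 and Ccr2, at least 1 of Csf1r and under 3 of C1q genes, and macrophages were 2785 barcodes with at least 10 C1q UMIs. The CD45+ Tom+ library held only 11 monocytes. A gene was counted as higher or lower when the log2 ratio was at least 1 in the same direction in all 4 libraries. By that measure 176 of 1897 genes (9.28%) were higher and 231 (12.2%) lower in neutrophils than in monocytes, and 350 of 2171 (16.1%) higher than in macrophages.

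Receptors for chemoattractants were high as a group. All 6 tested were higher than in monocytes, with a median log2 ratio of 2.38, and 6 of 7 were higher than in macrophages, with a median of 3.47. The medians over all tested genes were -0.19 and -0.18. Beside Cxcr2, Ccr1, a receptor for Ccl3, was at 641, 788, 757 and 852 CPM in that order, against 82.1 to 125 CPM in monocytes. C5ar1, the receptor for complement C5a, had 525, 754, 516 and 815 CPM. The formyl peptide receptors, which detect bacterial peptides, were lower in the Tom+ libraries, with Fpr1 at 95.5 CPM in CD45- Tom+, 214 in CD45- Tom-, 99.01 in CD45+ Tom+ and 231 in CD45+ Tom-. Fpr2 followed the same order at 109, 310, 149 and 354 CPM. Cxcr4, the receptor that holds neutrophils in and returns them to the marrow, was at 552 to 769 CPM.

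Adhesion molecules overlapped more with other myeloid cells. Of 8 tested, 3 were higher than in monocytes and 4 higher than in macrophages. Cd44, a hyaluronan receptor, was at 1234 to 1948 CPM. Itgam, the alpha chain of the Mac-1 integrin, was at 297 to 656 CPM, within a range that monocytes shared at 375 to 520 CPM.

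The subunits of the NADPH oxidase, which makes the respiratory burst, did not set neutrophils apart, as 0 of 6 were higher than in monocytes in all 4 libraries. Cybb, the membrane subunit, was lower in neutrophils, at 191, 599, 35.4 and 257 CPM in that order, than in the monocytes of the same libraries at 481, 1103, 1052 and 952 CPM. Ncf1, a cytosolic subunit, was at 416 to 514 CPM against 138 to 273 CPM in monocytes. Cyba, the partner of Cybb in the membrane, was at 525, 878, 573 and 906 CPM, against 941, 1043, 855 and 930 CPM in monocytes.

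Receptors for microbial patterns were higher than in monocytes for 6 of 10 genes and higher than in macrophages for 8 of 10. Clec4d and Clec4e, C-type lectins that bind mycobacterial and fungal lipids, had 1223 to 2021 CPM and 845 to 1991 CPM, and monocytes had 72.3 to 149 CPM and 204 to 300.2 CPM. Cd14, the lipopolysaccharide co-receptor, was at 1289, 2388, 1549 and 2032 CPM, and Nlrp3, the inflammasome sensor that leads to interleukin-1 beta release, at 395 to 537 CPM.

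Of 18 cytokine and inflammatory genes tested, 9 were higher than in monocytes and 14 higher than in macrophages, and 1 was lower than in monocytes. Cxcl2, a chemokine read by Cxcr2, was at 10936 CPM in CD45- Tom+, 12045 in CD45- Tom-, 13289 in CD45+ Tom+ and 16409 in CD45+ Tom-, in at least 97.8% of the neutrophils of each library. Ccl3 and Ccl4, ligands that attract monocytes and neutrophils, were patchier, in 53.3 to 65.5% and in 27.6 to 56% of cells. Csf1, the growth factor of macrophages, was at 491, 565, 636 and 649 CPM in neutrophils, and at 0 to 17.6 CPM in monocytes and 1.52 to 5.93 CPM in macrophages. Ptgs2, the inducible cyclooxygenase, was at 682 to 1209 CPM. Neutrophils therefore held both a main ligand of Cxcr2 and the receptor itself, and messages of both interleukin-1 beta and its decoy receptor.

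Antigen presentation genes lay on the other side, with 4 of 8 lower than in monocytes and none higher, a median log2 ratio of -2.30. H2-Aa, a class II chain, was at 299.99 CPM in CD45- Tom+, 550 in CD45- Tom-, 184 in CD45+ Tom+ and 227 in CD45+ Tom-, and at 3557 to 3990 CPM in monocytes. Interferon-response genes were higher than in monocytes for 4 of 7. Of the transcription factors, 1 of 9 was higher than in monocytes in all libraries. Cebpb, a factor of emergency granulopoiesis, was at 3649 to 5331 CPM and Spi1, which encodes PU.1, at 396 to 645 CPM. The survival gene Mcl1, on which neutrophils depend, was at 1814 to 2396 CPM. Glycolysis genes were not set apart, with 1 of 11 higher than in monocytes.

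Within the libraries, neutrophils differed from each other in Retnlg, a resistin-like secreted protein and 1 of the rule genes. Retnlg was detected in 18 of 29 CD45- Tom+ neutrophils, 44 of 92 CD45- Tom-, 12 of 25 CD45+ Tom+ and 54 of 110 CD45+ Tom-. The cells without it had entered through Csf3r. Their median UMI totals were close to those with it, 3475 against 3834 in CD45- Tom- and 3877 against 3827 in CD45+ Tom-. Of 1334 genes tested in the 2 larger libraries, 12 (0.9%) were at least 2-fold higher in Retnlg-positive cells in both and 4 (0.3%) lower. Wfdc21 was higher in all 4 libraries, by 2.36 (0.89 to 4.31), 1.39 (0.94 to 1.87), 1.95 (0.40 to 3.94) and 1.75 (1.29 to 2.24) on the log2 scale. The highest single neutrophil held 10 of 43, 70 of 215, 15 of 27 and 23 of 221 Wfdc21 UMIs, a spread between cells that the intervals do not cover. Adam8, a metalloprotease of granules, was higher by 1.37 (0.78 to 1.98) in CD45- Tom- and 1.27 (0.76 to 1.80) in CD45+ Tom-, and its ratios in the Tom+ libraries were 0.20 and 0.01. Lower in Retnlg-positive cells were Tnf, at -1.22 (-1.91 to -0.55) in CD45- Tom- and -1.24 (-1.69 to -0.80) in CD45+ Tom-, the death gene Pmaip1, at -1.43 (-2.29 to -0.62) and -1.32 (-2.01 to -0.66), and Lipa and Mylip. For Tnf the Tom+ libraries gave -0.58 (-1.64 to 0.50) and 0.06 (-1.25 to 1.45). The split was made after the values were seen, and the 2 sets shared nearly all other genes.

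A small set of cells held Siglecf, a lectin better known from eosinophils and also described on tissue neutrophils. A UMI was in 0 of 29 cells in CD45- Tom+, which allows a share of up to 10.3% of cells with a UMI, in 12 of 92 in CD45- Tom-, 4 of 25 in CD45+ Tom+ and 7 of 110 in CD45+ Tom-, with 14, 8 and 9 UMIs in the last 3. Thinned to 1000 UMIs the shares were 0, 5.95, 0 and 0.909%, and 0% of stromal barcodes. At this depth the libraries could not be ordered.

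A second set of cells passed the rule and also carried RNA of other lineages. In all, 32 neutrophils had at least 10 UMIs summed over the markers of 1 other lineage or more than 20% immunoglobulin UMIs, limits chosen after the values were seen. They were 11 of 29 in CD45- Tom+, 10 of 92 in CD45- Tom-, 5 of 25 in CD45+ Tom+ and 6 of 110 in CD45+ Tom-, and they held 47.2, 31.1, 39.2 and 13.2% of the neutrophil UMIs. Macrophage markers put 6, 7, 4 and 3 of them in the set, and monocyte markers 2, 7, 1 and 2. Their S100a8 plus S100a9 medians were 271, 279, 358 and 312 per 10000 UMIs, and those of the remaining neutrophils 805, 634, 545 and 733. In CD45- Tom-, the 7 cells with monocyte markers had 6055 to 22882 UMIs each and held 765 of the 899 Fn1 UMIs of all 92 neutrophils. In CD45+ Tom+ a single cell of 29041 UMIs, 56.1% of them immunoglobulin, gave 20.5% of the library's neutrophil UMIs. It still held 687 UMIs of S100a8 and S100a9, 10 of Csf3r, 42 of Retnlg and 26 of Il1b. Whether such barcodes held 1 cell or 2 was not tested. Without these 32 cells the neutrophil shares were 0.349% (0.207 to 0.552%), 1.48% (1.18 to 1.84%), 0.899% (0.550 to 1.38%) and 1.60% (1.31 to 1.93%), in the same order.

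**Figure D3:**
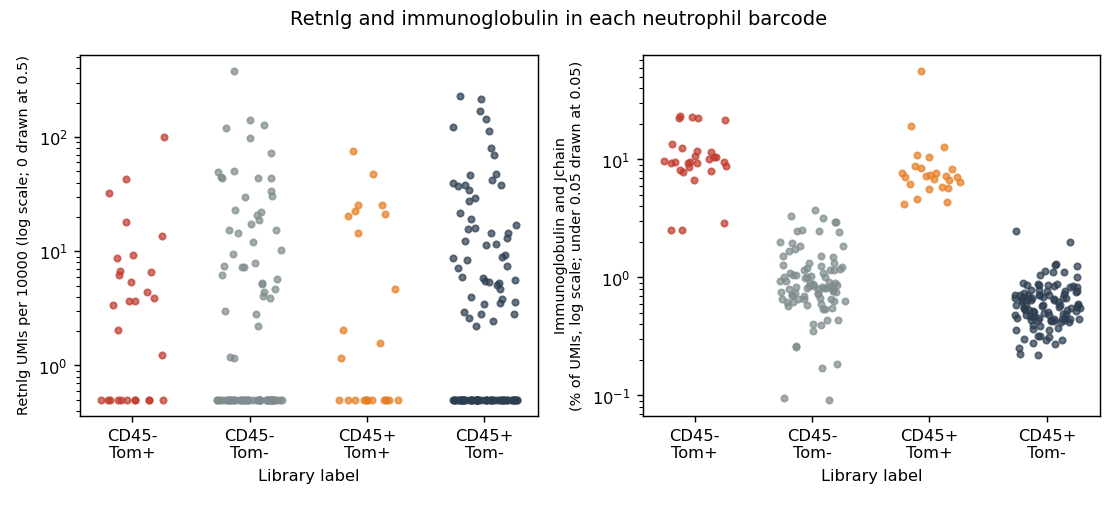
Each point is 1 of the 256 neutrophils in its library, with Retnlg UMIs per 10000 on the left (0 drawn at 0.5) and immunoglobulin and Jchain as a percent of UMIs on the right, both on log axes. Retnlg is at 0 in 11, 48, 13 and 56 cells, and immunoglobulin shares lie between 2.53 and 56.1% in the Tom+ libraries and between 0.0918 and 3.75% in the Tom- libraries.

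Immunoglobulin RNA was higher in neutrophils of the Tom+ libraries than in those of the Tom- libraries. Immunoglobulin genes and Jchain held 8.56% of neutrophil UMIs in CD45- Tom+, 0.738% in CD45- Tom-, 17.2% in CD45+ Tom+ and 0.568% in CD45+ Tom-. The ranges over single cells overlapped only between 2.53 and 3.75%. The share was also higher in Tom+ than in Tom- in both pairs of all other kept barcodes, at 24.3, 1.52, 24.9 and 1.92%, and of other kept barcodes with UMI totals within the neutrophils' quartiles, at 14.0, 1.41, 12.3 and 0.930%. Plasma cell markers summed to 6000, 648, 8982 and 403 CPM in neutrophils and to 13119, 912, 14153 and 1078 CPM in the other kept barcodes. Stromal markers went the other way, at 266, 837, 205 and 813 CPM in neutrophils and 5777, 23210, 5469 and 22505 CPM in the others. The part of free RNA in the neutrophils' values was not tested.

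The reporter transcript went with the sort in neutrophils too, by less than in the other cells. tdTomato was at 723 CPM (592 to 874) in CD45- Tom+ neutrophils, 80.04 CPM (54.4 to 114) in CD45- Tom-, 728 CPM (595 to 883) in CD45+ Tom+ and 75.5 CPM (52.6 to 105) in CD45+ Tom-. The groups were separate within both pairs, with log2 ratios of 3.17 (2.59 to 3.80) and 3.27 (2.70 to 3.87), and of 2.41 and 3.33 without the cells rich in other lineages. Such cells held 66 of the 106 tdTomato UMIs of CD45- Tom+ and 45 of the 103 of CD45+ Tom+, and the single highest cell held 26 and 35. In all other kept barcodes tdTomato was at 718, 17.2, 715 and 19.7 CPM, log2 ratios of 5.38 and 5.18. The Tom+ levels of neutrophils were thus close to those of all other cells, and the Tom- levels were 80.04 and 75.5 against 17.2 and 19.7 CPM. Other kept barcodes of like depth had 1023, 66.2, 1003 and 50.9 CPM. In these, mast cell markers summed to 26863, 5715, 24735 and 6684 CPM, against 2715, 430, 2945 and 354 in all other kept barcodes. The like-depth barcodes thus differed in cell types as well as in depth. A tdTomato UMI was in 72.4, 23.9, 76.0 and 23.6% of neutrophils, and after thinning to 1000 UMIs in 34.5, 9.52, 52.0 and 5.45%, beside 52.3, 4.82, 59.3 and 4.05% of the like-depth barcodes. No cell type in these libraries was known to lack the reporter, so a background share could not be set.

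The p16 transcript itself was not measurable in neutrophils. Cdkn2a, whose locus encodes p16, gave 1 UMI over all 256 cells, in CD45- Tom+, and the other kept barcodes had 8.73 to 10.3 CPM. A count of 0 allows up to 3 UMIs in each of the other 3 libraries. Cdkn1a, which encodes p21, was at 116 CPM in CD45- Tom+, 194 in CD45- Tom-, 120.2 in CD45+ Tom+ and 209 in CD45+ Tom-, with log2 ratios of Tom+ over Tom- of -0.74 (-1.59 to 0.03) and -0.80 (-1.64 to -0.05). These totals include immunoglobulin. With it left out, the median over all tested genes moved from -0.34 to -0.07 in the CD45+ pair. The upper end of the CD45+ interval for Cdkn1a, at -0.05, depends on that choice.

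**Figure D4:**
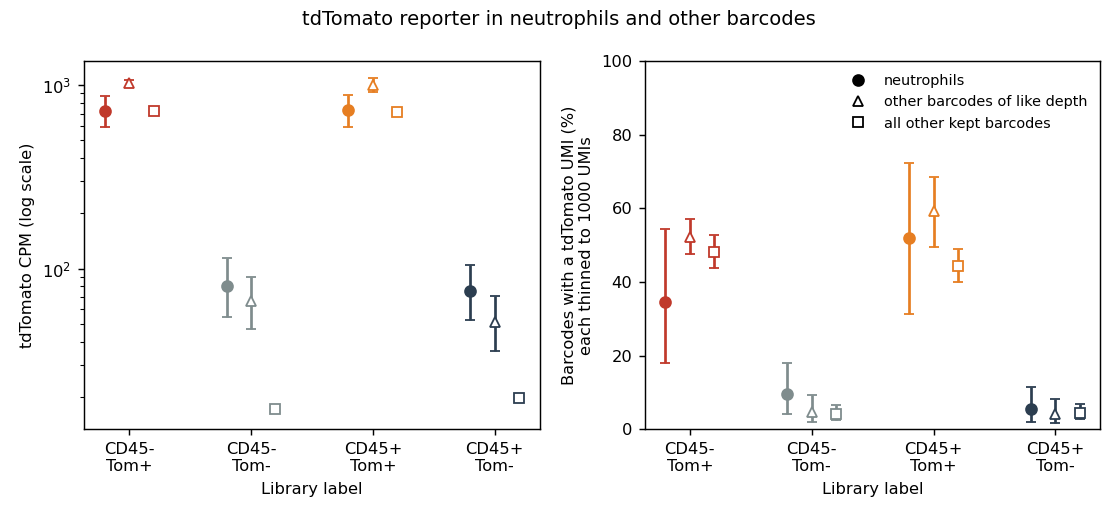
tdTomato in neutrophils (circles), other kept barcodes of like depth (triangles) and all other kept barcodes (squares) of the 4 libraries, as CPM on a log axis on the left and as the percent of barcodes with a UMI after thinning to 1000 UMIs on the right, with exact 95% intervals for counting error. On the left, neutrophils of the Tom+ libraries lie at 723 and 728 CPM, near all other barcodes at 718 and 715 and below those of like depth at 1023 and 1003 CPM. Those of the Tom- libraries lie at 80.04 and 75.5 CPM, above all other barcodes at 17.2 and 19.7 CPM and nearer to those of like depth at 66.2 and 50.9 CPM.

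Few genes differed between Tom+ and Tom- neutrophils in the same direction in both pairs of libraries. Genes were compared where the mean was at least 50 CPM and the sum at least 20 UMIs, and a gene counted as different at 2-fold or more. In the CD45- pair, 188 of 2715 genes (6.92%) were higher in Tom+ and 249 (9.17%) lower. In the CD45+ pair, 108 of 2412 (4.48%) were higher and 315 (13.1%) lower. Both pairs tested 2224 genes, of which 44 (1.98%) were higher in both, 52 (2.34%) lower in both and 8 past 2-fold in opposite directions. The 2 pairs share no library. The median log2 ratio over all tested genes was -0.16 in the CD45- pair and -0.34 in the CD45+ pair. With immunoglobulin genes left out of the totals the medians were -0.03 and -0.07, and the counts were 220 higher and 195 lower, and 172 higher and 195 lower. In both pairs 50 of 2332 genes were then higher and 29 lower.

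The genes higher in Tom+ neutrophils included genes of plasma cells and macrophages, and 6 of the 44 were immunoglobulin genes. Of the 44, 21 were also at least 2-fold higher in the rest of the cells of both pairs, and none was among the 245 genes that were at least 4-fold higher in neutrophils than in the other barcodes in all 4 libraries. These 245 were part of the 2224 genes tested in both pairs and were chosen from the same neutrophil values. How many of the 2224 were 2-fold higher in the rest is not given here, so the 21 have no background share beside them. Mzb1, a chaperone of antibody secretion, was at 334 CPM in CD45- Tom+, 33.6 in CD45- Tom-, 488 in CD45+ Tom+ and 36.7 in CD45+ Tom-, log2 ratios of 3.32 (2.41 to 4.32) and 3.73 (2.95 to 4.59), and 3.31 and 2.93 in the rest of the cells. Txndc5, a disulfide isomerase of the secretory pathway, gave 2.79 (2.09 to 3.54) and 2.87 (2.18 to 3.60), and 2.05 and 2.13 in the rest. Both kept their direction and size without the 32 cells rich in other lineages, Mzb1 at 3.98 and 3.23 and Txndc5 at 2.83 and 2.29.

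Several macrophage genes had most of their Tom+ UMIs in few cells, and Selenop and Tmem176a were detected more widely. Ccl8, a monocyte-attracting chemokine, had 41 UMIs in CD45- Tom+, 2 in CD45- Tom-, 119 in CD45+ Tom+ and 11 in CD45+ Tom-, log2 ratios of 5.76 (3.81 to 8.85) and 5.15 (4.26 to 6.19). The cells rich in other lineages held 35 of the 41 and 118 of the 119 UMIs, and without them the ratios were 4.37 and -1.10. Mrc1, the mannose receptor of resident macrophages, had ratios of 4.08 (3.20 to 5.10) and 5.76 (3.79 to 8.86), and all 77 of its UMIs in CD45- Tom+ lay in such cells. Its level in the remaining neutrophils was 0, 37.5, 69.8 and 4.97 CPM, in 0, 9, 5 and 2 cells, so that the CD45+ ratio was still 3.81. Selenop, a selenium carrier, was in 23 of 29 CD45- Tom+ and 15 of 25 CD45+ Tom+ neutrophils, and the highest cell held 165 of 272 and 57 of 116 UMIs. Its ratios of 3.58 (3.17 to 4.01) and 1.90 (1.502 to 2.297) were 1.05 and 0.81 without the cells rich in other lineages. Fcgrt, the neonatal Fc receptor, had 3.44 (2.36 to 4.68) and 2.52 (1.17 to 3.98), with 35 of 37 and 12 of 14 Tom+ UMIs in such cells, and 1.20 and 3.23 without them, on 1 to 3 cells per library. Ms4a7, a macrophage membrane protein, had 2.40 and 2.71, and 1.05 and -0.58 without them. Tmem176a, a membrane protein, had 2.02 (1.02 to 3.06) and 2.50 (1.36 to 3.72), and 2.46 and 2.38 without them. It was in 14 of 29 CD45- Tom+ and 10 of 25 CD45+ Tom+ neutrophils. All other kept barcodes of these libraries had 436 and 434 CPM of Tmem176a, and their macrophages 246 and 256.

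Of the 52 genes lower in Tom+ neutrophils, 8 were also at least 2-fold lower in the rest of the cells of both pairs, and 8 belonged to the 245 neutrophil-enriched genes (3.27% of these, against 2.34% of all genes). The 8 enriched genes were Il1rn, Fpr1, Fpr2, Ncf4, Fas, Pilra, Gpr35 and Arg2, a list drawn up after the values were seen. With immunoglobulin out of the totals their ratios rise. The median of the chemotactic receptors, for example, moved from -0.39 and -0.43 to -0.27 and -0.17. Ratios close to 2-fold, such as those of Fpr1, Fpr2, Ncf4, Gpr35 and Arg2, may not stay past it in both pairs at that setting. Of the 8, only Il1rn is given at that setting below. How many of all tested genes were 2-fold lower in the rest is not given here, so the genes also lower there have no background share. Il1rn, the interleukin-1 receptor antagonist, was at 225 CPM in CD45- Tom+, 746 in CD45- Tom-, 410.2 in CD45+ Tom+ and 839 in CD45+ Tom-. Its log2 ratios were -1.73 (-2.30 to -1.21) and -1.03 (-1.46 to -0.63), beside 0.33 and -0.33 in the rest of the cells. They were -1.41 and -1.10 without the cells rich in other lineages, and -1.61 and -0.77 with immunoglobulin out of the totals, so that the CD45+ pair fell under 2-fold there. Fas, the death receptor, had -1.32 (-2.45 to -0.35) and -1.56 (-2.74 to -0.57), and the rest of the cells had -1.17 and -1.19. Fpr2 gave -1.51 (-2.36 to -0.75) and -1.25 (-1.98 to -0.59), and Fpr1 -1.17 (-2.10 to -0.34) and -1.22 (-2.14 to -0.41). Without the cells rich in other lineages these were -1.11 and -0.99 for Fpr2 and -0.84 and -0.86 for Fpr1. The rest of the cells had -0.24 and -1.43 for Fpr2 and -0.36 and -1.22 for Fpr1. In the CD45+ pair both genes were thus lower by a similar amount in the rest.

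The 8 genes with the lowest ratios by the smaller of the 2 pairs were Chil3, Fn1, Irak3, Dcn, Col1a2, C3, S100a4 and Pilrb2. Irak3, a brake on toll-like receptor signalling, was at 20.5 CPM in CD45- Tom+, 132 in CD45- Tom-, 21.2 in CD45+ Tom+ and 92.8 in CD45+ Tom-. That is 3 UMIs in each Tom+ library, with log2 ratios of -2.69 (-5.01 to -1.06) and -2.13 (-4.46 to -0.48). It was in 23 of 92 and 28 of 110 cells of the Tom- libraries and 2 cells of each Tom+ library, and the rest of the cells had -1.25 in both pairs. Pilrb2, a paired activating receptor whose relatives share sequence, gave -1.73 (-3.68 to -0.24) and -1.99 (-3.92 to -0.55), with -0.15 and -0.06 in the rest. Dcn, Col1a2 and C3, which fibroblasts express strongly, had ratios of -2.27 and -2.02, -2.23 and -2.35, and -1.999 and -2.007, close to those of the rest of the cells at -2.11 and -2.12, -1.92 and -1.95, and -2.21 and -2.12. Fn1, which encodes fibronectin, had ratios of -3.55 (-4.14 to -3.02) and -2.19 (-3.28 to -1.28). Without the cells rich in other lineages they were -0.83 and -2.06, so that only the CD45- ratio fell under 2-fold. S100a4, a calcium-binding protein, had -2.68 (-3.66 to -1.84) and -1.80 (-3.16 to -0.69), and 0.56 and -0.61 without those cells. Chil3 had 1 UMI in each Tom+ library against 56 and 48, with ratios of -4.41 (-9.74 to -1.87) and -3.87 (-9.21 to -1.33), and the rich cells held 46 of the 56 and all 48.

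Several panels of neutrophil genes had medians below those of all tested genes, which were -0.16 and -0.34, and others did not. The counts over all neutrophils stand beside 9.17 and 13.1% of all tested genes lower in the 2 pairs. Those without the cells rich in other lineages stand beside 293 of 2214 and 241 of 2397 genes lower. Of 6 oxidase genes, 3 were lower in the CD45- pair and 2 in the CD45+ pair, none higher. Their medians were -0.93 and -0.73, or -0.81 and -0.46 with immunoglobulin out of the totals. Without the cells rich in other lineages 1 was lower in each pair, and the medians were -0.74 and -0.59. Cybb had -1.65 (-2.27 to -1.08) and -2.86 (-4.51 to -1.60), and Ncf4, a cytosolic subunit, -1.12 (-1.79 to -0.50) and -1.04 (-1.64 to -0.48), which were -0.98 and -0.80 without those cells. The ratios of Cybb were -1.54 and -1.94 without the rich cells, which held 182 of its 232 UMIs in CD45- Tom-. Of 15 glycolysis and hypoxia genes, 6 and 5 were lower and none higher, with medians of -0.84 and -0.83, or -0.72 and -0.57 with immunoglobulin out of the totals, and 4 of 15 and 3 of 14 were lower without the rich cells. Tpi1, a glycolytic isomerase, gave -2.77 (-4.68 to -1.35) and -1.61 (-3.55 to -0.14) on 4 UMIs in each Tom+ library, and Eno1, an enolase, -1.09 (-1.78 to -0.46) and -1.25 (-2.10 to -0.50). Chemotactic receptors had 2 of 8 lower in each pair, the formyl peptide receptors, and adhesion genes 3 and 2 of 9. Without the rich cells these were 1 and 0 chemotactic receptors and 2 and 0 adhesion genes. Of the survival and death genes, 4 of 11 and 3 of 12 were lower and none higher, with medians of -0.69 and -0.58. That count did not fall without the rich cells, at 5 of 11 and 4 of 12 lower, with medians of -0.51 and -0.39. The genes of a Siglecf-type neutrophil state had medians of -0.21 and 0.13, and the genes that respond to tissue dissociation 0.15 and -0.15.

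Of the genes that set neutrophils furthest apart, Il1b and Cxcr2 stayed under 2-fold in both pairs, as did the Cxcr2 ligand Cxcl2. Il1b stood at -0.31 (-0.42 to -0.20) on the log2 scale in the CD45- pair and at -0.25 (-0.35 to -0.15) in the CD45+ pair, which became -0.19 and 0.01 with immunoglobulin out of the totals. Cxcl2 had -0.14 (-0.22 to -0.06) and -0.30 (-0.38 to -0.23), and Cxcr2 -0.25 (-0.63 to 0.11) and -0.35 (-0.69 to -0.02). Il1f9 was lower, at -1.11 (-1.70 to -0.57) and -0.89 (-1.30 to -0.51), past 2-fold in the CD45- pair. Of the 18 inflammatory genes, 4 and 2 were lower and none higher, and Il1rn was the one lower in both pairs. Tnf differed between the pairs, at 0.05 (-0.57 to 0.63) and -1.45 (-2.14 to -0.83), a difference that was not tested. Interferon-response genes had 0 of 12 past 2-fold in the CD45- pair and 1 higher and 2 lower of 11 in the CD45+ pair. Of 13 genes known to respond to tissue dissociation, only Jun passed 2-fold in the CD45- pair, at 1.06 (0.74 to 1.38), and its ratio in the CD45+ pair was 0.97 (0.69 to 1.25). The highest cell held 32 of 146 Jun UMIs in CD45- Tom+ and 73 of 169 in CD45+ Tom+. Macrophages had 984, 407, 1166 and 482 CPM of Jun in the same order of libraries, and all other kept barcodes 1889, 2494, 2184 and 2371.

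Over the 245 neutrophil-enriched genes as a whole, 1 was higher and 22 (8.98%) lower in the CD45- pair, and 0 higher and 36 (14.7%) lower in the CD45+ pair, with medians of -0.40 and -0.54. Over the 2224 genes that both pairs tested, 88 (3.96%) were higher and 207 (9.31%) lower in the CD45- pair, and 80 (3.60%) higher and 297 (13.4%) lower in the CD45+ pair, with medians of -0.18 and -0.35. The shares lower were near those of all genes, and fewer enriched genes were higher. The enriched genes were chosen from the same neutrophil values, in Tom+ and Tom- libraries alike. A gene that fell short of 4-fold in either was left out, so these counts depend in part on that choice. Without the 32 cells rich in other lineages the enriched genes had medians of -0.25 and -0.28, and 4 of them (1.63%) were lower in both pairs, beside 45 of 2031 genes (2.22%) of all those tested, and 1 was higher in both, beside 21 (1.03%). The depth of the Tom+ libraries, 146671 and 141399 neutrophil UMIs in all, left genes under 50 CPM without a usable ratio.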

How the data were processed

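The authors sorted cells by flow cytometry, prepared 10x Genomics Chromium 3′ libraries and, per the submitters' processing notes, used Cell Ranger 3.0.2 with mm10. They deposited 1 matrix of UMI counts (whole numbers, not normalized) per library. Whether doublets or free RNA had been removed before was not given in the sources used here.

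Barcodes were filtered and neutrophils chosen as described above. UMIs were summed per library and group and scaled to CPM, with exact Poisson and Clopper-Pearson intervals and a conditional exact interval for ratios. With 1 library per group no test was run, and a fold of 2 replaced it. Against a group at 0 UMIs the ratio was taken at a floor of 3 UMIs over the group. The monocyte rule first caught 409 barcodes, many with over 20% immunoglobulin or a CD3 UMI, which were then left out. The neutrophil rule, gene panels and comparisons were chosen with earlier results of these data known. Named genes were the 15 leading genes at 200 CPM or more, the 8 highest and 8 lowest by the smaller ratio of the 2 pairs (immunoglobulin, haemoglobin, mitochondrial, ribosomal and predicted genes and tdTomato left out), and panel members with many UMIs or large ratios. Of 211 panel genes 210 were in the gene table, and 30934 of 31054 features matched GENCODE M21. Python 3.11.15, numpy 2.4.6, scipy 1.17.1, pandas 2.3.3 and scanpy 1.11.5 (Scrublet, as an alternative) were used, and the scripts were tested on simulated counts. The result for 1 gene is not reported here.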

Additional observations from a re-analysis of the deposited data

Results flagged for a closer look

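Spp1, which encodes osteopontin, passed 2-fold in opposite directions in the 2 pairs. Its log2 ratio of Tom+ over Tom- neutrophils was -1.73 (-2.65 to -0.93) in the CD45- pair, on 14 and 123 UMIs, and 1.21 (0.55 to 1.85) in the CD45+ pair, on 36 and 51 UMIs. The difference between the pairs was not tested. A single CD45- Tom- cell held 80 of its library's 123 UMIs. Spp1 was at 308 to 1267 CPM in monocytes and 1244 to 2525 CPM in macrophages of the same libraries.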

How the results depend on the processing

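The shares kept their order within both pairs under the filters tried, and the log2 ratio of Tom+ over Tom- ran from -2.08 to -0.92 in the CD45- pair and from -0.89 to -0.19 in the CD45+ pair, counting the settings that left at least 1 neutrophil per library. With at least 200 genes the shares were 1.06% in CD45- Tom- and 1.28% in CD45+ Tom-. The study's limits of over 1000 and under 7000 genes gave 2.14% in CD45+ Tom-, and leaving out barcodes with at least 10 times the UMIs in another library, a choice made after seeing the data, gave 2.05%. Leaving out the cells rich in other lineages, chosen likewise, gave 0.349% in CD45- Tom+. Leaving out every neutrophil with 3 or more other-lineage UMIs left shares of 0, 0.0361, 0 and 0.153%, since nearly all neutrophils had that many.

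Counts of genes higher and lower in Tom+ were 41 and 143 (CD45- pair) and 43 and 201 (CD45+ pair) after thinning each cell to 1000 UMIs, 79 and 100 and 40 and 122 with a mean of at least 100 CPM, and 1747 and 971 and 1198 and 1212 with no minimum but 1 UMI in each library. Fewer genes were tested after thinning and at 100 CPM. After thinning, 4.70% were higher and 16.4% lower of 872 genes in the CD45- pair, and 4.15% and 19.4% of 1035 in the CD45+ pair. The shares lower were thus above the 9.17 and 13.1% of the main comparison. At 100 CPM they were 6.69% of 1494 genes and 9.07% of 1345. Of the alternatives added after seeing the data, immunoglobulin out of the totals gave 172 and 195 in the CD45+ pair, leaving out neutrophils over 20% immunoglobulin gave 209 lower in that pair, and leaving out those rich in other-lineage markers gave 71 higher in the CD45- pair.

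Most reversed ratios came with such additions. Without neutrophils that had 5 or more C1q UMIs, Ccl8 was at -1.33 and Ms4a7 at -0.81 in the CD45+ pair and Mrc1 at -1.68 in the CD45- pair. Without the cells rich in other lineages, Ccl8 was at -1.10 and Ms4a7 at -0.58 in the CD45+ pair and S100a4 at 0.56 in the CD45- pair. Vegfa was at 0.31 in the CD45- pair after thinning and Spp1 at -0.092 in the CD45+ pair with a mitochondrial limit of 20%, and the cause was not tested. Of the remaining ratios and settings 4057 moved by less than the counting interval and 366 by more. No paired analysis was possible because each group was 1 library.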
